A study of Mus musculus with 10 samples.

Results

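Levels of 10 genes, Bcl3 and 9 genes of the NF-κB family and its inhibitors, were compared in RNA-seq libraries of lens epithelium from WT mice and from the transgenic lines OVE853 and OVE918. The genes were chosen by symbol, as Bcl3, Nfkb1, Nfkb2, Rela, Relb, Rel, Nfkbia, Nfkbie, Nfkbiz and Tnfaip3, and all 10 were found among the 50763 genes of the count table. Every group consisted of 3-week-old mice of the FVB/N background that received no treatment. OVE853 and OVE918 mice carry a transgene for a secreted, self-activating human TGF-β1 driven by the lens-specific αA-crystallin promoter, both lines form a plaque beneath the anterior lens capsule, and WT mice carry no transgene. Epithelia were pooled before RNA extraction, from up to 9 WT mice, from up to 9 OVE853 mice (18 explants) and from up to 7 OVE918 mice (14 explants), which gave 3 WT, 3 OVE853 and 4 OVE918 libraries. The whole epithelium was sequenced and not the plaque alone, so that fewer cells of a type and less RNA per cell cannot be told apart. Replicates were pools of mice, and p-values measure the spread between pools.

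NF-κB transcription factors are dimers of 5 related proteins. RelA, RelB and c-Rel carry a domain that activates transcription, whereas p50 and p52, cut from the products of Nfkb1 and Nfkb2, lack one. The IκB proteins encoded by Nfkbia and Nfkbie hold dimers in the cytoplasm until an IκB kinase marks them for destruction, and A20, encoded by Tnfaip3, dampens the signal upstream of that kinase. BCL3 and the product of Nfkbiz resemble IκB proteins in sequence but act in the nucleus, where BCL3 binds p50 and p52 homodimers and can turn them into activators or repressors. Several of these genes, Nfkbia and Tnfaip3 among them, are themselves known NF-κB targets.

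Upstream sequences of Nfkbia, Nfkbie and Relb are shown because these genes were higher in both lines and carried the known binding motif of NF-κB close to their start sites. Each is the 300 bases before the start of the reference transcript in GENCODE vM39, read 5′ to 3′ on the strand of the gene from GRCm39, with matches to the 10-base κB consensus in capitals. The window of Nfkbia is chr12:55539433-55539732 on the minus strand, that of Nfkbie is chr17:45866306-45866605 on the plus strand, and that of Relb is chr7:19363424-19363723 on the minus strand.
Nfkbia: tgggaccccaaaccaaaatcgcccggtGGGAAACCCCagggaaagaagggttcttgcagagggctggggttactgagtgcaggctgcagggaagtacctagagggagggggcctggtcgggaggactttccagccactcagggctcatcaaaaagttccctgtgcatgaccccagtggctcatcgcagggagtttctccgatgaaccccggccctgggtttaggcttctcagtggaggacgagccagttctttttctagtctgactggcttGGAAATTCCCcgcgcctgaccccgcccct
Nfkbie: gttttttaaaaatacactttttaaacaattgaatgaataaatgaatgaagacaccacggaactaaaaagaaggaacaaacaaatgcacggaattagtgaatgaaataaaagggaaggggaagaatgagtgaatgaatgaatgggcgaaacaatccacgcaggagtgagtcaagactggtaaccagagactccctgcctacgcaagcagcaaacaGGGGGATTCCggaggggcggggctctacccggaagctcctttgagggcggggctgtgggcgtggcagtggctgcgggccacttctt
Relb: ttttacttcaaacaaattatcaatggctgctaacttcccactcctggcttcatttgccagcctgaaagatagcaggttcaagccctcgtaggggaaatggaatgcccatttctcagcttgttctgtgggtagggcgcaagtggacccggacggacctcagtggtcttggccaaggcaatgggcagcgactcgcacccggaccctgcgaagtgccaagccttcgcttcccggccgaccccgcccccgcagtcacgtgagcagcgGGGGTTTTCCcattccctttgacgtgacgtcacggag
Nfkbia held 2 matches, of which the nearer lay 29 to 20 bases before the start. The single match of Nfkbie lay 86 to 77 bases before its start and that of Relb 37 to 28 bases. Searched on both strands, a κB match was present in the windows of 5 of the 10 genes (the 3 shown, Rel and Tnfaip3) and in 8.84% of the windows of 21736 protein-coding genes. The windows of Bcl3, Nfkb1, Nfkb2, Rela and Nfkbiz held no match to these letters, which says nothing about sites elsewhere. The window of Bcl3 lies within an exon of another Bcl3 transcript and is not shown. That of Nfkbiz also lies inside its annotated gene, as does most of that of Tnfaip3. Windows of Nfkbie, Relb and Rela reach a short way into their genes. All of these windows are included in the counts. The AP-1 motif TGANTCA was present in the windows of Nfkbie and Tnfaip3, apart from their κB matches, and in 7.38% of all windows, and the STAT motif TTCNNNGAA in 0 of the 10 windows against 9.2% of all windows. A match to letters is a description of the sequence and not a measured binding site.

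The authors counted read pairs per gene, and library totals on genes were between 24073311 and 31908525. Levels are given as CPM, counts relative to a common library size, and totals scaled by edgeR's TMM factors. Differences were tested with the quasi-likelihood F-test of edgeR over 11092 genes and adjusted by the Benjamini-Hochberg method. A differentially expressed gene (DEG) had an FDR no larger than 0.05 and a log2 fold change of 1 or more in either direction. Tested genes had at least 2 FPKM, a level per kilobase of exon, in 5 of the 10 libraries. This left 9 of the 10 genes, without Rel. Of the 9, Bcl3, Nfkb2 and Relb reached the minimum in 0 WT libraries and were tested through the transgenic libraries alone, as were 194 of all 11092 tested genes. Tgfb1, whose count may include reads of the transgene, averaged 54.3 ± 6.41 CPM over the WT libraries, 350 ± 11.3 CPM over the OVE853 libraries and 775 ± 78.0 CPM over the OVE918 libraries (SD, n = 3, 3 and 4). WT replicate 3 stood apart by 12 markers of retinal neurons and photoreceptors, which summed to 545 CPM there and to 62.7 and 65.0 CPM in the other WT libraries, and by 6 endothelial markers, at 115 CPM against 18.6 and 21.4 CPM. It held the highest WT level of 4 of the 9 tested genes, against 40.5% of all tested genes. For genes of the family, values that depend on it are given with and without it. Genes of the other lists are given with it only. The 7 lens epithelium markers were detected in all libraries. They summed to between 153709 and 158843 CPM in WT, 103824 and 118350 CPM in OVE853, and 128242 and 195626 CPM in OVE918. Every OVE853 library thus lay below every WT library.

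Bcl3 was the gene of the family that differed most from WT in both lines. It lies on chromosome 7 from 19541553 to 19557570 on the minus strand. Its level was 0.760, 0.616 and 0.456 CPM in WT replicates 1 to 3, from 17, 16 and 13 read pairs. In OVE853 it was 23.7, 18.1 and 23.7 CPM, and in OVE918 14.1, 19.8, 17.9 and 21.7 CPM. All 7 transgenic libraries lay far above all WT libraries, and the lines overlapped each other. OVE853 exceeded WT by a log2 fold change of 5.17 (standard error 0.24, FDR = 7.07e-07), which is 36.0-fold with a 95% interval from 25.0 to 51.8. For OVE918 the value was 4.92 (standard error 0.23, FDR = 1.15e-06), which is 30.3-fold with an interval from 21.2 to 43.2. By log2 fold change, Bcl3 ranked 7 of 11092 genes in OVE853 and 9 of 11092 in OVE918. Both contrasts use the same 3 WT libraries, so that a chance low level in WT would enter both.

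Among the cytoplasmic inhibitors, Nfkbie and Nfkbia were higher than WT in both lines. Nfkbie encodes IκBε and lies on chromosome 17 from 45866585 to 45874661. Its levels were 4.70, 6.16 and 5.50 CPM in WT, 16.7, 13.9 and 18.3 CPM in OVE853, and 11.8, 12.3, 13.0 and 14.2 CPM in OVE918. No transgenic library overlapped WT, and the lowest of them was nearly 2 times the highest WT library. OVE853 exceeded WT by 1.58 on the log2 scale (standard error 0.15, FDR = 8.78e-05) and OVE918 by 1.23 (standard error 0.14, FDR = 0.000163).

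Nfkbia encodes IκBα, which NF-κB induces and which returns its dimers to the cytoplasm, and lies on chromosome 12 from 55535332 to 55539432. Levels were 14.1, 16.7 and 20.7 CPM in WT, 36.7, 33.7 and 45.1 CPM in OVE853, and 28.2, 41.5, 32.5 and 33.9 CPM in OVE918. WT replicate 3 was the highest WT library and still lay below every transgenic library. On the log2 scale the rise was 1.17 in OVE853 (standard error 0.18, FDR = 0.00173) and 0.99 for OVE918 (standard error 0.17, FDR = 0.00206), the second just short of the fold minimum of a DEG. Without WT replicate 3 it was 1.32 in OVE853 and 1.14 in OVE918, where Nfkbia then counted as a DEG.

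**Figure D1:**
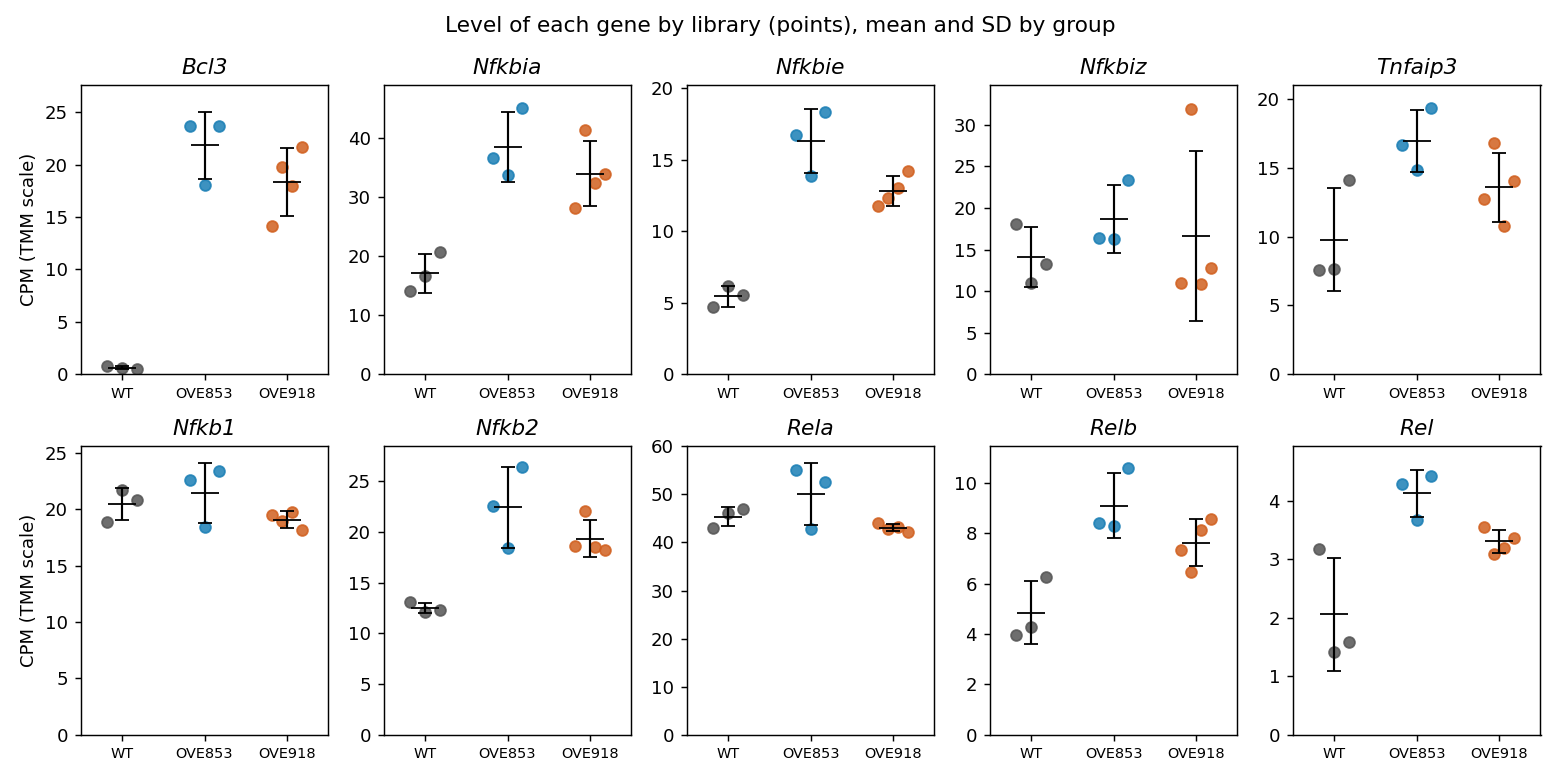
Levels of the 10 genes in CPM on the TMM scale in WT, OVE853 and OVE918. Points are libraries, and bars give the mean and SD of each group. WT and transgenic libraries are apart for Bcl3, Nfkbia, Nfkbie, Nfkb2 and Relb, and they overlap for Nfkb1, Rela and Nfkbiz.

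Tnfaip3 and Nfkbiz had wider spreads. Tnfaip3, the gene of the ubiquitin-editing enzyme A20 on chromosome 10 from 18874201 to 18891405, was at 7.60, 7.66 and 14.1 CPM in WT, 16.7, 14.9 and 19.4 CPM in OVE853, and 12.8, 16.8, 10.8 and 14.0 CPM in OVE918. WT replicate 3 was close to 2 times the other WT libraries and overlapped OVE918, but not OVE853. Its log2 fold change reached 0.79 in OVE853 (95% interval 0.25 to 1.33, FDR = 0.0501) and 0.47 in OVE918 (interval -0.04 to 0.98, FDR = 0.181). Neither passed in the edgeR test with all libraries. In OVE853 the call changed with small shifts of method, as Tnfaip3 passed with DESeq2 (FDR = 0.0129), with upper-quartile factors (FDR = 0.0435), with no filter beyond 1 count (FDR = 0.0399) and without OVE918 replicate 2 (FDR = 0.0476). Without WT replicate 3, both lines passed, with 1.15 in OVE853 (FDR = 0.00310) and 0.83 in OVE918 (FDR = 0.0102).

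Nfkbiz encodes IκBζ, a nuclear co-regulator of p50, and lies on chromosome 16 from 55631738 to 55659262. It was at 18.1, 11.0 and 13.2 CPM in WT, 16.3, 16.3 and 23.4 CPM in OVE853, and 11.0, 31.9, 10.9 and 12.8 CPM in OVE918. OVE918 replicate 2 was more than 2 times the other libraries of its group, which lay within or just below the WT range. Log2 fold changes were 0.41 in OVE853 (interval -0.51 to 1.32, FDR = 0.502) and 0.24 in OVE918 (interval -0.62 to 1.10, FDR = 0.709). Without OVE918 replicate 2, the value in OVE918 was -0.29.

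The subunits divided by whether they passed the test. Nfkb2 and Relb, which encode p52 and its usual partner in the non-canonical pathway, were higher in both lines by FDR, below the fold minimum of a DEG. Nfkb1 and Rela, which encode the canonical p50 and RelA pair, did not pass, and their intervals leave out a doubling in either line.

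Nfkb2 lies on chromosome 19 from 46292759 to 46303812. Its levels were 13.1, 12.1 and 12.3 CPM in WT, 22.5, 18.4 and 26.4 CPM in OVE853, and 18.6, 22.1, 18.5 and 18.2 CPM in OVE918. The lowest transgenic library was well above the highest WT library. The difference amounted to 0.85 on the log2 scale in OVE853 (standard error 0.14, FDR = 0.00250) and 0.63 for OVE918 (standard error 0.13, FDR = 0.00610).

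Relb lies on chromosome 7 from 19339017 to 19363425, near Bcl3 and on the same strand. It was at 3.98, 4.27 and 6.28 CPM in WT, 8.43, 8.30 and 10.6 CPM in OVE853, and 7.32, 6.48, 8.14 and 8.58 CPM in OVE918. WT replicate 3 came close to the lowest OVE918 library, and WT did not overlap the lines. Relative to WT, Relb was higher by 0.91 on the log2 scale in OVE853 (standard error 0.20, FDR = 0.0130) and by 0.65 in OVE918 (standard error 0.19, FDR = 0.0350). The call in OVE918 was lost when any of 7 libraries was left out, with an FDR of up to 0.108 without WT replicate 2, and in OVE853 it was lost without OVE853 replicate 3 (FDR = 0.0619). Without WT replicate 3, the log2 fold change was 1.14 in OVE853 and 0.88 in OVE918.

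Nfkb1 lies on chromosome 3 from 135290264 to 135397742, where another annotated gene overlaps it on the same strand. Levels were 18.9, 21.7 and 20.8 CPM in WT, 22.6, 18.4 and 23.4 CPM in OVE853, and 19.5, 18.9, 19.8 and 18.1 CPM in OVE918. The groups overlapped throughout. Log2 fold changes were 0.07 in OVE853 (interval -0.17 to 0.31, FDR = 0.681) and -0.10 in OVE918 (interval -0.33 to 0.13, FDR = 0.545).

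Rela lies on chromosome 19 from 5687493 to 5698161. Levels were 43.1, 46.0 and 47.0 CPM in WT, 55.0, 42.8 and 52.5 CPM in OVE853, and 44.0, 42.8, 43.3 and 42.2 CPM in OVE918. OVE853 replicate 2 was below all WT libraries and the other OVE853 libraries above them. Fitted log2 fold changes were 0.14 in OVE853 (interval -0.08 to 0.36, FDR = 0.329) and -0.08 in OVE918 (interval -0.28 to 0.13, FDR = 0.622).

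Rel, the gene of c-Rel on chromosome 11 from 23686847 to 23721264, was scarce. It was at 3.18, 1.42 and 1.58 CPM in WT, 4.29, 3.67 and 4.43 CPM in OVE853, and 3.56, 3.09, 3.20 and 3.37 CPM in OVE918. WT replicate 1 lay among the OVE918 libraries and the other WT libraries below all transgenic ones. With edgeR's filterByExpr in place of the FPKM minimum, which kept 18058 genes, Rel had a log2 fold change of 1.02 in OVE853 (FDR = 0.0460) and of 0.71 in OVE918 (FDR = 0.109). With no filter beyond 1 count, the FDR in OVE853 was 0.0575.

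**Figure D2:**
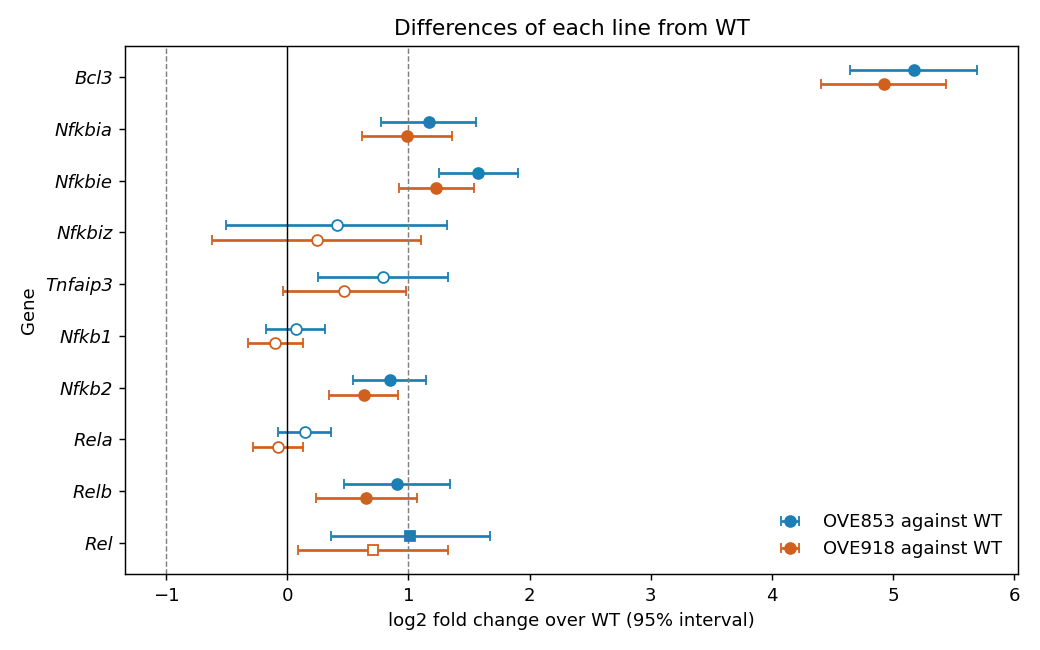
Log2 fold change of each line over WT from edgeR, with 95% intervals. Filled symbols have an FDR of at most 0.05, squares mark Rel, which was tested with filterByExpr, and dashed lines mark the fold minimum of a DEG. Bcl3 stands at 5.17 and 4.92, and all other values lie between -0.10 and 1.58.

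Counted over the family, 3 of the 9 tested genes were elevated DEGs in OVE853 (Bcl3, Nfkbie and Nfkbia), whereas 2.52% of all tested genes were, and 0 were reduced DEGs (1.91% of all tested genes). In OVE918, 2 of the 9 were elevated DEGs (Bcl3 and Nfkbie) against 2.58% of all tested genes, and 0 were reduced (3.02%). By FDR alone, 5 of the 9 were higher in OVE853 (8.10% of all tested genes) and 5 in OVE918 (8.00%), namely Bcl3, Nfkbie, Nfkbia, Nfkb2 and Relb. By FDR alone, 0 were lower, against 7.69% of all tested genes in OVE853 and 11.0% in OVE918. All libraries of the line lay above all WT libraries for 6 of the 9 genes in OVE853 (23.4% of all tested genes) and for 5 of the 9 in OVE918 (12.3%). These counts depend in part on the filter, since Bcl3, Nfkb2 and Relb entered the test through the libraries in which they were higher, and they are given as a description. The median log2 fold change was 0.85 in OVE853 and 0.63 in OVE918, beside -0.01 and 0.01 over all tested genes. With filterByExpr, which added Rel, 4 of the 10 genes were elevated DEGs in OVE853 (3.17% of all tested genes) and 3 in OVE918 (3.45%), and 0 were reduced (3.72% and 5.34%).

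Leaving out WT replicate 3 raised the count in OVE853 from 3 to 5, by adding Relb and Tnfaip3, and that in OVE918 from 2 to 3, by adding Nfkbia. In these fits 276 of 11092 tested genes were elevated DEGs in OVE853 and 273 of 11092 in OVE918. Nfkbia counted in OVE918 under 7 of the alternatives, with log2 fold changes between 1.01 and 1.14, and not under the others. Its DEG status in that line therefore depended on small shifts around the fold minimum, while its FDR was at most 0.00974 under all 19 alternatives.

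The lines were then compared directly, to ask whether the line with more Tgfb1 mRNA also had higher levels of the family. Tgfb1 was 2.22-fold higher in OVE918 than in OVE853 (log2 fold change 1.15, FDR = 0.00388). That count may include reads of the transgene and does not measure active TGF-β1. Each Tgfb1 level belongs to a single independent line, so that level and line cannot be told apart, and an effect of dose was not tested. For the 9 tested genes the difference was negative in every case with all libraries, with a median log2 fold change of -0.22, whereas 53.5% of all tested genes had a negative value. However, 0 of the 9 passed by DEG or by FDR alone, beside 0.487% and 1.31% of all tested genes. At an unadjusted p of 0.05 there were 2 by edgeR, Nfkbie and Rela, and 2 by DESeq2. The share of all tested genes at that p was not counted, so that these counts have no background to be read against. Nfkbie had a log2 fold change of -0.35 (interval -0.64 to -0.06, FDR = 0.163) and Rela of -0.22 (interval -0.42 to -0.01, FDR = 0.195). For Bcl3 it was -0.25, with an interval from -0.61 to 0.11 that leaves out a rise of the size seen for Tgfb1. The interval of Nfkbiz, from -1.01 to 0.68, was the widest of the 9, and its value turned to 0.034 without OVE853 replicate 3.

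Levels per exon length show which genes dominated the family. In WT the order by mean FPKM was Rela at 16.7 ± 0.756, Nfkbia at 10.9 ± 2.10, Nfkb1 at 4.35 ± 0.307, Nfkbiz at 3.10 ± 0.798, Nfkbie at 2.22 ± 0.298, Nfkb2 at 1.85 ± 0.0750, Relb at 1.42 ± 0.367, Tnfaip3 at 1.42 ± 0.540, Bcl3 at 0.303 ± 0.0755 and Rel at 0.265 ± 0.125 (SD, n = 3). Rela, Nfkbia and Nfkb1 were apart from their neighbours, the 5 genes from Nfkbiz to Tnfaip3 each overlapped the next, and Bcl3 overlapped Rel at the bottom of the order.

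In OVE853 Nfkbia led at 24.4 ± 3.75 FPKM, followed by Rela at 18.4 ± 2.37, Bcl3 at 10.8 ± 1.60 and Nfkbie at 6.63 ± 0.919 (SD, n = 3), and none of these 4 overlapped its neighbour. The order of the first 4 was the same in OVE918, with Nfkbia at 21.6 ± 3.51, Rela at 15.9 ± 0.279, Bcl3 at 9.11 ± 1.61 and Nfkbie at 5.22 ± 0.429 FPKM (SD, n = 4), again without overlap. From Nfkb1 downward, at 4.56 and 4.06 FPKM in OVE853 and OVE918, neighbours mostly overlapped, and Rel was lowest in each line. With exons of all transcripts as the length, Bcl3 was at 0.116 FPKM in WT, 4.16 in OVE853 and 3.51 in OVE918. It then stood below Rel in WT and remained below Nfkbia and Rela and above Nfkbie in both lines.

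**Figure D3:**
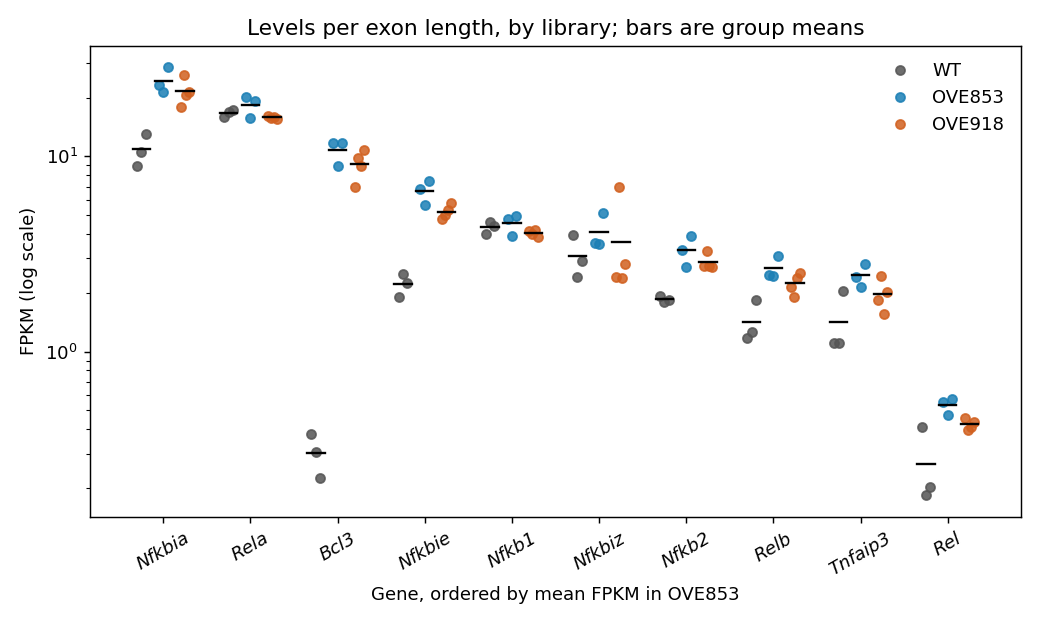
FPKM of the 10 genes by library, on a log axis, ordered by the mean in OVE853. Points are libraries and bars are group means. Bcl3 moves from 0.303 FPKM in WT, beside Rel, to 10.8 in OVE853 and 9.11 in OVE918, between Rela and Nfkbie.

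Because BCL3 binds p50 and p52, its FPKM was divided by the summed FPKM of Nfkb1 and Nfkb2. This ratio of mRNA levels was 0.0634, 0.0477 and 0.0362 in WT, 1.44, 1.35 and 1.33 in OVE853, and 1.01, 1.35, 1.28 and 1.64 in OVE918. In WT, Bcl3 mRNA was thus a small part of that of its partners, and in the transgenic libraries it exceeded their sum. The latter rests on the length definition, since with exons of all transcripts the mean ratio was 0.0368 in WT, 0.925 in OVE853 and 0.894 in OVE918.

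The ratio of Nfkb2 to Nfkb1 was 0.482, 0.388 and 0.413 in WT, 0.695, 0.696 and 0.786 in OVE853, and 0.663, 0.812, 0.652 and 0.700 in OVE918. Relb to Rela was 0.0737, 0.0740 and 0.106 in WT, 0.122 to 0.161 in OVE853 and 0.121 to 0.162 in OVE918. Neither ratio overlapped between WT and the lines, although Relb and Nfkb2 stayed below Rela and Nfkb1 in every library. Nfkbia to Rela was 0.563, 0.623 and 0.756 in WT, 1.15 to 1.48 in OVE853 and 1.10 to 1.67 in OVE918, so that IκBα mRNA was below that of RelA in each WT library and above it in each transgenic library. The groups of these ratios differ by what the single genes already showed and were given no separate test.

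**Figure D4:**
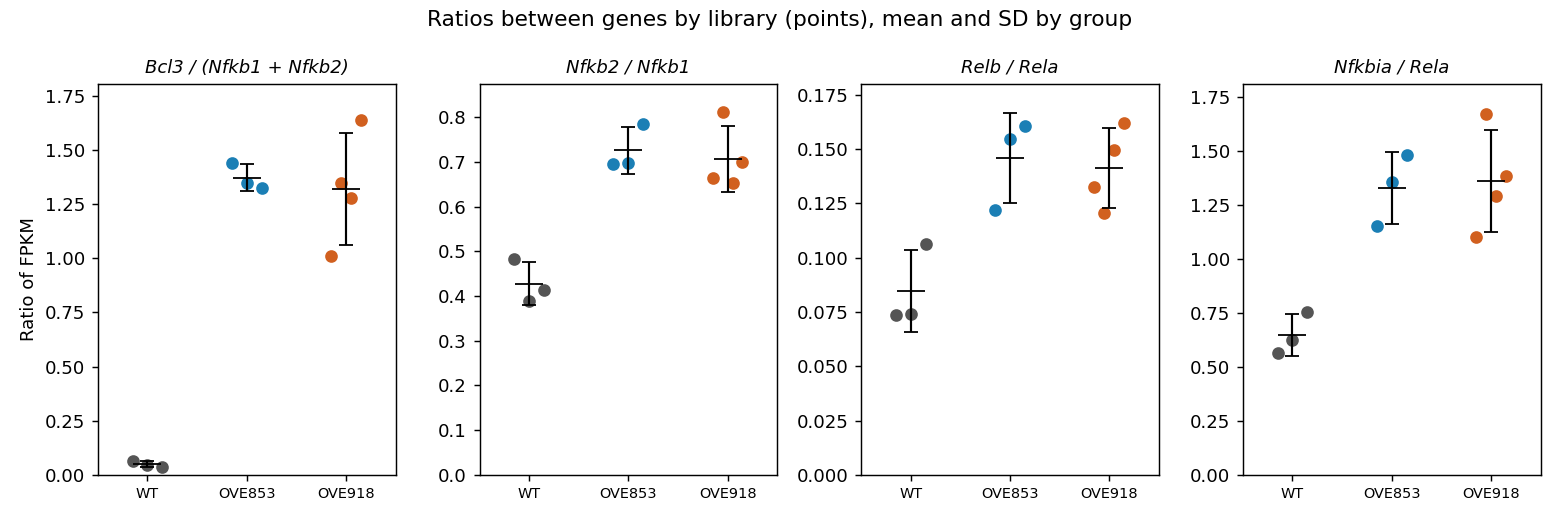
Ratios of FPKM between genes of the family in WT, OVE853 and OVE918. Points are libraries, and bars give the mean and SD of each group. The mean ratio of Bcl3 to Nfkb1 plus Nfkb2 is 0.0491 in WT, 1.37 in OVE853 and 1.32 in OVE918, and WT does not overlap the lines in any panel.

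Genes around the family were counted in lists by role. Of 10 genes of kinases and their partners (the IκB kinases and their regulatory subunit, TBK1, TAK1, NIK and the TAB proteins), 8 were tested. In either line 0 of the 8 were DEGs or passed by FDR, with medians of 0.14 (OVE853) and 0.03 (OVE918). Chuk in OVE853 (0.25, FDR = 0.185) and Tab1 in OVE918 (-0.20, FDR = 0.115) were farthest from 0. Of all tested genes, 8.10% were higher and 7.69% lower by FDR alone in OVE853, and 8.00% and 11.0% in OVE918. Elevated DEGs were 2.52% and 2.58% of all tested genes and reduced DEGs 1.91% and 3.02%. With so few genes tested, 0 calls says little beside these shares. Of 23 adaptors and ubiquitin regulators, 18 were tested and 0 were DEGs. By FDR alone, 4 of the 18 were higher and 0 lower in OVE853, and 3 were higher and 1 lower in OVE918. The shares of all tested genes given above apply here as well. Card10, a scaffold that couples receptors to BCL10 and MALT1, was higher by FDR at 1.00 in OVE853 (FDR = 0.000896) and 0.96 in OVE918 (FDR = 0.000495), just under the fold minimum. Traf3, which restrains the non-canonical pathway, was higher by FDR at 0.61 (FDR = 0.00981) and 0.46 (FDR = 0.0213), and Irak2 was lower at -0.67 in OVE918 (FDR = 0.00104).

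Of 14 receptors, 6 were tested. In OVE853, 2 of the 6 were elevated DEGs (2.52% of all tested genes) and 0 were reduced (1.91%). In OVE918, 3 were elevated (2.58%) and 1 was reduced (3.02%). Tnfrsf11a, which encodes RANK, was elevated at 2.00 in OVE853 (FDR = 0.0108) and 1.90 in OVE918 (FDR = 0.00783), and Ngfr, which encodes the p75 neurotrophin receptor, at 1.06 (FDR = 3.96e-05) and 1.11 (FDR = 9.40e-06). Tnfrsf11a reached the FPKM minimum in 0 WT libraries and was tested through the transgenic libraries alone. In OVE918, Tnfrsf12a, the TWEAK receptor, was elevated at 1.19 (FDR = 0.00164) and Tnfrsf1a, the main TNF receptor, reduced at -1.11 (FDR = 0.00621). In OVE853 these were 0.54 (FDR = 0.0933) and -0.38 (FDR = 0.287). Between the lines, 0 of the 6 receptors passed, beside 1.31% of all tested genes by FDR alone. Of 9 ligands, Tnfsf12 was tested, with -0.41 in OVE853 (FDR = 0.322) and -0.31 in OVE918 (FDR = 0.451). Tnf had at most 6 read pairs in any library and Il1b had 17 to 49 in WT, 4 to 12 in OVE853 and 3 to 16 in OVE918, with FDR = 0.0748 and 0.0826 under filterByExpr. The RANK ligand gene Tnfsf11 had at most 2 read pairs, at which level a difference was not detectable.

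Of 24 genes known as NF-κB targets, 11 were tested and 6 were elevated DEGs in OVE853 and 5 in OVE918, beside 2.52% and 2.58% of all tested genes, with 0 reduced. Icam1 and Ccl7 reached the FPKM minimum in 0 WT libraries. The median log2 fold change was 1.43 and 1.28. Both lines had elevated Ccl7 (3.25 in OVE853 and 3.83 in OVE918), Ccl2 (2.82 and 2.30), Icam1 (1.90 and 1.28) and Vcam1 (1.72 and 1.52), which encode chemokines and adhesion molecules. Csf1 was a DEG in OVE853 (1.43, FDR = 0.000178) and higher by FDR alone in OVE918 (0.94, FDR = 0.00102). Lcn2 was a DEG in OVE853 (2.12, FDR = 0.0473), with 1.59 in OVE918 (FDR = 0.0886). Ier3 was one in OVE918 (1.40, FDR = 0.0415), with 1.03 in OVE853 (FDR = 0.126). Between the lines, 0 of the 11 passed, beside 1.31% of all tested genes by FDR alone. Sod2, a standard NF-κB target, was at -0.08 (FDR = 0.556) and 0.09 (FDR = 0.497), and Bcl2l1, Ccnd1 and Gadd45b did not pass in either line. With filterByExpr, 9 of 19 were elevated DEGs in each line (3.17% and 3.45% of all genes tested so), among them Tnfaip2 at 4.37 (FDR = 0.000156) and 4.53 (FDR = 5.72e-05) and Zc3h12a at 1.78 (FDR = 0.00513) and 1.60 (FDR = 0.00419). Some of these targets were known to be elevated here before the list was drawn up, so that the count is not independent evidence.

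BCL3 itself is a target of STAT3 and of NF-κB in other cells. Of 11 genes of the gp130 and STAT3 axis, all tested, 4 were elevated DEGs in OVE853 (2.52% of all tested genes) and 3 in OVE918 (2.58%), with 0 reduced. They were the oncostatin M receptor gene Osmr at 2.21 in OVE853 (FDR = 0.000486) and 2.03 in OVE918 (FDR = 0.000367), and the acute-phase genes Lbp at 4.33 (FDR = 3.42e-06) and 3.14 (FDR = 1.21e-05) and Serpina3n at 3.89 (FDR = 2.63e-06) and 4.38 (FDR = 1.15e-06). Stat3 itself was a DEG in OVE853 at 1.11 (FDR = 0.000160) and higher by FDR alone in OVE918 at 0.91 (FDR = 0.000229). Lbp reached the FPKM minimum in 0 WT libraries and was lower in OVE918 than in OVE853, at -1.18 (FDR = 0.0249). By FDR alone, the kinase gene Jak2 was lower in both lines, at -0.46 (FDR = 0.0138) and -0.62 (FDR = 0.00113), and the receptor gene Lifr was higher at 0.54 in OVE853 (FDR = 0.0395), with 0.05 in OVE918 (FDR = 0.851). Il6st, Jak1, Socs3, Cebpb and Cebpd did not pass in either line. Some genes of this list, too, were known to be elevated here when it was drawn up. Of 4 binding partners of BCL3, Kat5 and Cops5 were tested and did not pass in either line.

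**Figure D5:**
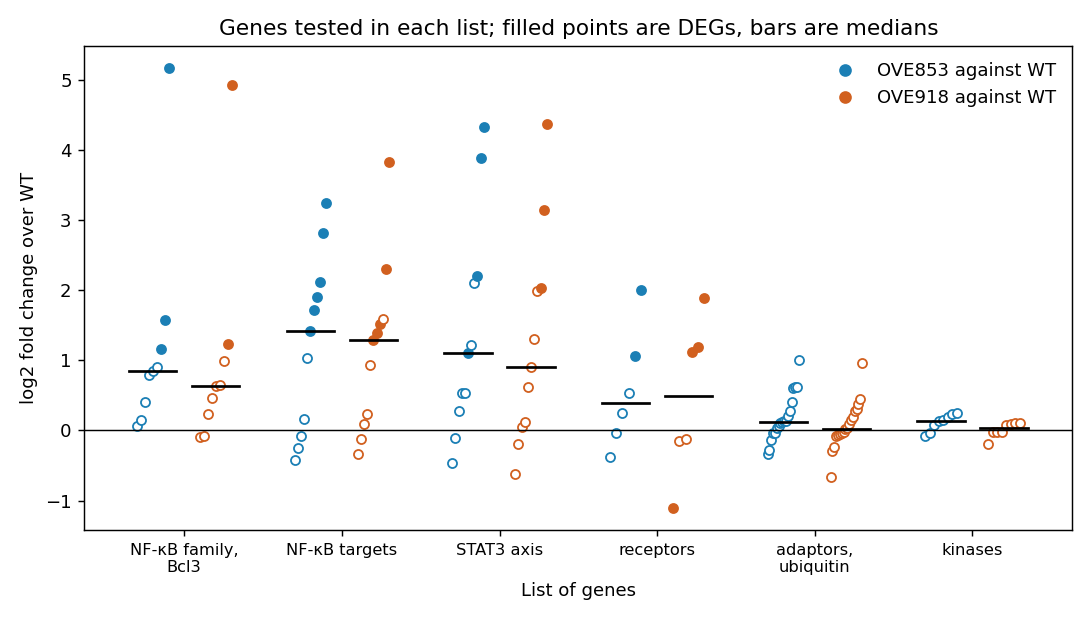
Log2 fold change over WT of the tested genes in each list, for OVE853 and OVE918. Filled points are DEGs and bars are medians. Targets have medians of 1.43 and 1.28 and the 9 tested genes of the family 0.85 and 0.63. The medians of the adaptors and of the list of kinases and their partners lie near 0.

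By the Pearson correlation of log2 CPM over the 10 libraries, the 5 genes most like Bcl3 were Sbno2 (r = 0.994), Sdc3 (r = 0.994), B4galt5 (r = 0.993), Ip6k3 (r = 0.991) and Jak3 (r = 0.991). WT and transgenic libraries form separate clusters for Bcl3, so that r mostly restates the difference between them, and 295 of 11091 genes (2.66%) had an r over 0.9. Within the 7 transgenic libraries r was 0.716 for Sbno2 and 0.173 for B4galt5. The log2 fold changes of these 5 genes were between 1.33 and 2.50, below that of Bcl3. Of the family, Nfkbie was nearest to Bcl3 in both calculations (r = 0.964, and 0.835 within the transgenic libraries). Nfkb2 (0.920 and 0.659) and Nfkbia (0.919 and 0.787) followed, close together over the 10 libraries. All points share the library's depth and dissection.

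Cells of blood origin use this pathway strongly, so their markers are given beside the result. The 14 macrophage markers summed to 25.5 to 61.0 CPM in WT libraries, 52.6 to 83.9 CPM in OVE853 libraries and 36.5 to 99.1 CPM in OVE918 libraries. Cd163 was at 0 in the 3 OVE853 libraries and no other macrophage marker was at 0 in any library. Of the 4 that were tested, 0 were DEGs in OVE853 and 1, C1qa, was elevated in OVE918, with median log2 fold changes of 1.24 and 1.18. Elevated DEGs were 2.52% and 2.58% of all tested genes. The 8 lymphocyte markers summed to at most 1.31 CPM in WT, 3.34 CPM in OVE853 and 3.78 CPM in OVE918, with 1 to 6 of them at 0 in each library, and the 6 neutrophil markers to at most 0.666, 1.96 and 2.12 CPM. OVE918 replicate 2, with macrophage markers at 36.5 CPM inside the WT range, had Bcl3 at 19.8 CPM and Nfkbia at 41.5 CPM. OVE853 replicate 2, at 52.6 CPM and also inside that range, had Bcl3 at 18.1 CPM. The library with the most, OVE918 replicate 4 at 99.1 CPM, had Bcl3 at 21.7 CPM. The part of these cells in the differences of the family, that of Bcl3 included, was not tested.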

How the data were processed

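RNA was sequenced from pooled lens epithelia in 10 libraries of paired reads. The authors used Cutadapt 5.2 for trimming and STAR 2.7.11b for alignment to GRCm39. They assigned read pairs to RefSeq genes with featureCounts 2.0.8 in reverse-stranded mode. The deposited values are raw counts without normalization. Reads were assigned by strand, so that genes on the opposite strand do not share them. The fit was made in edgeR 4.0.16 under R 4.3.3 (TMM factors, quasi-likelihood fit with robust dispersions, 3 groups together, Benjamini-Hochberg adjustment within each of 3 contrasts), and with DESeq2 1.42.0 as an alternative. FPKM levels used TMM-scaled library sizes, and the FPKM minimum for testing used unscaled library totals. In place of RefSeq lengths, both used the exons of Primary transcripts in GENCODE vM39, found by symbol for 43252 of 50763 genes. The 7511 genes without a length were not tested. Intervals are 95% intervals of the fit. Each group's replicates come from the labels. The steps were tested on simulated data.

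The 10 genes, the lists and the tests were chosen with earlier results of these data known. All 10 genes are named. Of each pathway list, DEGs in either line were named, or in their absence genes with the largest differences, and further genes (Traf3, Irak2, Card10, Jak2, Lifr, Tnf, Il1b, Tnfsf11, Sod2, Tnfaip2, Zc3h12a and those that did not pass) were named after their values were seen. Marker lists comprised macrophages, lymphocytes, neutrophils, endothelium, retinal cells, ciliary and pigmented epithelium, lens epithelium and lens fibers. Alternatives were DESeq2, upper-quartile factors, other filters, a model without the third group, non-robust dispersions, the replicate number or the library's R number as a factor, and leaving out each library. For FPKM they were exons of all transcripts and unscaled library sizes.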

Additional observations from a re-analysis of the deposited data

Results flagged for a closer look

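A library was examined more closely where it lay far from the others of its group, by Dixon's ratio of the gap to the range. The ratio was computed for the 10 genes in OVE918 alone, the group with 4 libraries. Of such tests, chance would single out about 1 in 20. WT and OVE853, with 3 libraries each, were not examined by it, so that libraries apart in those groups are not flagged here. Nfkbiz was at 31.9 CPM in OVE918 replicate 2 and between 10.9 and 12.8 CPM in the other OVE918 libraries (ratio 0.906). Nfkb2 was at 22.1 CPM in the same library and between 18.2 and 18.6 CPM in the others (ratio 0.904). That library also held the highest Nfkbia and Tnfaip3 levels of OVE918, at 41.5 and 16.8 CPM, and the lowest Relb level, at 6.48 CPM, none of which passed the critical value. Without it, the log2 fold change over WT was 0.56 for Nfkb2 (FDR = 0.0156, edgeR) and -0.29 for Nfkbiz (FDR = 0.369, edgeR).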

How the results depend on the processing

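Of 170 alternatives for the log2 fold changes of the genes over WT, 166 in OVE853 and 162 in OVE918 kept direction and DEG status, 2 and 7 gained the status and 1 in OVE853 lost it (Rel without a filter, 1.01, FDR = 0.0575). Between the lines 169 of 170 kept theirs. The sign turned for 3 values that had not passed, each when 1 library was left out, with ranges from -0.0055 (without OVE853 replicate 3) to 0.17 for Nfkb1 in OVE853, from -0.29 (without OVE918 replicate 2) to 0.46 for Nfkbiz in OVE918, and from -0.70 to 0.034 (without OVE853 replicate 3) for Nfkbiz between the lines. Bcl3 ranged from 4.99 to 5.38 in OVE853 and from 4.74 to 5.10 in OVE918. The number of DEGs in all genes, 491 in OVE853 and 621 in OVE918, was 1244 and 1587 with filterByExpr and 1061 and 1548 with no filter beyond 1 count, which test more genes. Between the lines, 54 DEGs became 106 with DESeq2, 97 with only the groups compared and 33 with the R number as a factor, and from 5 (without OVE853 replicate 3) to 96 (without WT replicate 3) with 1 library left out, and the cause was not tested. DEGs of the family in OVE853 were 3 to 5 with 1 library left out. The 5 came without WT replicate 3, where 276 of 11092 tested genes were elevated DEGs. Replicate numbers did not pair the libraries (9 pairs, correlation of deviations between -0.303 and 0.0841), and with a replicate block there were 441, 539 and 28 DEGs in the 3 contrasts and 3, 2 and 0 in the family. What the R number stands for is not stated in the sample labels. By the R number, 8 pairs had correlations between -0.221 and 0.390, with 2 of them over 0.1. Pairs that share neither number also passed 0.1, such as WT replicate 1 with OVE918 replicate 2 at 0.296, so that the 2 are not read as pairing. With the R number as a factor there were 494, 643 and 33 DEGs in the 3 contrasts and 3, 3 and 0 in the family. Relb in OVE918 had an FDR between 0.0508 and 0.108 without any of 7 libraries, 0.0729 with only the groups compared and 0.0723 with the R number. The 6-library FPKM rule tested 7 of the genes, without Relb and Tnfaip3, and called 3 in OVE853 and 2 in OVE918 as DEGs. Under that rule 267 and 268 of 10838 tested genes were elevated DEGs. Tnfaip3 in OVE853 had an FDR between 0.00310 and 0.158 over its 18 alternatives. Bcl3 in WT rests on 13 to 17 read pairs a library, so that counting error widens its fold, and Tnf and Tnfsf11 were too scarce to show a difference.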

Other observations

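Receptor genes under the FPKM minimum also differed with filterByExpr. Tlr4, the receptor of bacterial lipopolysaccharide, was at 8.59 ± 4.23 CPM in WT, 0.695 ± 0.321 CPM in OVE853 and 0.482 ± 0.210 CPM in OVE918 (SD, n = 3, 3 and 4), with log2 fold changes of -3.60 (FDR = 0.00136) and -4.14 (FDR = 0.000200). Cd40, the receptor of CD40 ligand, was at 0.534 ± 0.263 CPM in WT and 2.60 ± 0.915 CPM in OVE918, a log2 fold change of 2.30 (FDR = 0.0109), and in OVE853 at 1.43 ± 0.690 CPM (1.43, FDR = 0.0917). Markers of ciliary and pigmented epithelium, which lies beside the lens, summed to between 150 and 384 CPM in WT, 61.4 and 91.5 CPM in OVE853 and 48.5 and 97.8 CPM in OVE918, in the direction of Tlr4, and their part in its level was not tested. Il6, an NF-κB target, had 0 read pairs in the 3 WT libraries, 2 to 21 in OVE853 and 3 to 26 in OVE918 (FDR = 0.0797 and 0.0364). These genes were chosen after their values were seen. All FDR values are from edgeR's quasi-likelihood test. Lens fiber markers summed to between 5551 and 14712 CPM in WT, 11162 and 20153 CPM in OVE853 and 13841 and 22887 CPM in OVE918.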
